A study of Homo sapiens with 8 samples.

Results

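The RAB GTPases and the synaptotagmins with their synaptotagmin-like relatives were followed in A549 cells, a human lung adenocarcinoma cell line. Members were the protein-coding genes whose symbol is RAB, SYT or SYTL followed by a number, with an optional letter for RAB genes, and which had at least 1 count in the 8 libraries. Of 85 such genes, 77 were members (57 RAB, 16 SYT and 4 SYTL genes), out of 15985 protein-coding genes with a count. RAB15, RAB42, RAB43, RAB4B, RAB5C, RAB9B, SYT10 and SYTL5 were listed at 0 in all 8 libraries, and for RAB43, RAB4B and RAB5C another gene shares 79.3%, 39.7% and 30.4% of the exon bases.

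The study compared 4 conditions of A549 cells with 2 libraries each: untreated, interferon-γ (IFN-γ) alone, AX-0085 alone, and both. IFN-γ was given as 20 ng, with no volume in the labels. The study's cell culture methods give 20 ng/mL as the usual dose. After 24 h AX-0085, a kinase inhibitor, was added to 0.5 µM, and the cells were harvested 24 h later. All cells were of one line, and nothing in the labels says that paired libraries came from separate cultures, so p-values measure the spread between these libraries, which may be technical. Library totals ranged from 20672828 to 29978251 counts, and 3 counts in a library corresponded to 0.0959 to 0.158 counts per 1000000 (CPM). Libraries of 1 condition differed by more than sampling noise (chi-square of 8.55 to 27.7 per degree of freedom). Mitochondrial transcripts took 1.71% and 1.82% of counts with IFN-γ alone and 2.72% to 5.73% elsewhere.

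RAB proteins are small GTPases that mark membranes: loaded with GTP by exchange factors and held on the membrane by prenyl lipids, they recruit effectors that move, tether and fuse vesicles, and GTPase-activating proteins switch them off. RAB3, RAB26, RAB27 and RAB37 act on secretory vesicles, RAB5 on early endosomes, RAB11 on recycling endosomes, and RAB7, RAB9 and RAB32 on late endosomes, lysosomes and related organelles. Synaptotagmins are vesicle membrane proteins with paired C2 domains. Some of them sense calcium and trigger fusion through SNARE proteins, and others lack the calcium-binding residues. Synaptotagmin-like proteins are RAB27 effectors that also carry C2 domains.

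RefSeq start sites (build GRCh38.p14) were at hand for 59 of the 77 members, with 86 upstream windows of 250 bases. The 4 windows shown belong to members with 1 listed start, 2 lower (RAB40B and RAB3D) and 2 higher (RAB32 and RAB9A) with IFN-γ, and CG dinucleotides are in capitals. They lie at chr17:82698699-82698948 (minus strand) for RAB40B, chr19:11339658-11339907 (minus strand, inside the longer gene span of the annotation used for counts) for RAB3D, chr6:146543583-146543832 (plus strand) for RAB32 and chrX:13688878-13689127 (plus strand) for RAB9A.
RAB40B: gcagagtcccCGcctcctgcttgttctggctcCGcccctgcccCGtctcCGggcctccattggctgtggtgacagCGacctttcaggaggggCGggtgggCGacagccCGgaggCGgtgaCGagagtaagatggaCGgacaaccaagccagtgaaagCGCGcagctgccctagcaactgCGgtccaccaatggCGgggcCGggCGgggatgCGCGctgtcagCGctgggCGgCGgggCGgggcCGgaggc
RAB3D: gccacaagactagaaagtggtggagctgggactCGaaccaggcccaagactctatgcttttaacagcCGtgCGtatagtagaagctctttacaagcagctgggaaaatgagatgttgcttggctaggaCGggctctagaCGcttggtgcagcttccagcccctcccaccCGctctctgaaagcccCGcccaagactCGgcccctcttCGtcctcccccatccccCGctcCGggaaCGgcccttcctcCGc
RAB32: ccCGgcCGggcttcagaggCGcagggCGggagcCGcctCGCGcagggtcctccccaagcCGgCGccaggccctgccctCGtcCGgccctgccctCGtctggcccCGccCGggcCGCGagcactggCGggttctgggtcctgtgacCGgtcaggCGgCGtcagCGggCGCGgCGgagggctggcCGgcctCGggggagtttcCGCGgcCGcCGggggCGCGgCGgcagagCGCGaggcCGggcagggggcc
RAB9A: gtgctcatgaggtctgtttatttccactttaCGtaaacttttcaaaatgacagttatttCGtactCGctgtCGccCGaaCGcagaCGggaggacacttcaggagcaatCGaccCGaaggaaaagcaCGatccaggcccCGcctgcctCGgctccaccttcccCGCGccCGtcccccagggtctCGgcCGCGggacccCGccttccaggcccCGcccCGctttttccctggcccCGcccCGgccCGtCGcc
The RAB32 window held 36 CG and was 82.0% G or C, against 24 and 71.2% for RAB40B, 25 and 63.6% for RAB9A, and 13 and 59.6% for RAB3D. None of these 4 windows held either interferon motif searched for on both strands, the GAS motif TTCNNNGAA or the core of the ISRE, the run GAAA followed after any 2 bases by GAAA again (TTTC and TTTC on the other strand). Among the windows of the 59 members the GAS letters stood in 2 of 86 (2.33%, against 6.57% of 35116 windows of all genes), and the ISRE letters in 1 (1.16%, against 3.02%). Members with no window, and so not searched, include RAB26, RAB37, RAB39B, SYT12, SYT13, SYT17 and SYTL2, all called with IFN-γ. The 3 matches are shown with the motif in capitals, at chr11:66268521-66268549 (plus strand), chr11:83071964-83071992 (minus strand) and chr15:55319344-55319373 (minus strand).
RAB1B: agactacaagTTCCGGGAAtcagcgcggc
RAB30: aagactacagTTCCCAGAAagcaccgctc
RAB27A: caaggtagacTTTCTCTTTCgcagctttat
RAB1B and RAB27A were not called with IFN-γ, and RAB30 had too few counts to be tested. RAB1B had only 7 to 22 counts per library, and 43.8% of its exon bases overlap another gene.

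Before the members, the treatment was checked on 2 interferon-responsive genes. GBP1, an interferon-induced GTPase, had 4 and 2 counts in untreated, 6377 and 8034 with IFN-γ, 2 and 1 with AX-0085, and 73 and 53 with both. CD274, the gene of PD-L1, was higher with IFN-γ by 5.31 on the log2 scale. All 6 epithelial markers were detected, at a summed 8820 to 9550 CPM in untreated, 6510 to 7400 with IFN-γ, 5760 to 6090 with AX-0085 and 7220 to 7300 with both. Of 4 alveolar type 2 markers NAPSA and SFTPA1 were at 0 in all libraries and the list summed to at most 0.494 CPM. The leukocyte list (CD3E and CD68 at 0) summed to 0.0402 to 0.158 CPM with IFN-γ and 0.352 to 0.956 elsewhere, and the endothelial list to at most 0.529. The fibroblast list, nearly all of it COL1A1, summed to 3.06 to 4.59 CPM with IFN-γ and 7.03 to 10.8 elsewhere.

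The first question was how IFN-γ alone changed vesicle-traffic genes. A gene was called when its adjusted p in edgeR's quasi-likelihood test was under 0.05 and it differed by more than 2-fold. Of the 77 members 62 had enough counts to be tested (48 RAB, 10 SYT and 4 SYTL genes). IFN-γ raised 4 members and lowered 18, or 22 of 62, where 10.3% of all 15066 genes tested were called higher, 17.2% lower and 27.5% either way. With an adjusted p alone, 41 of the 62 passed, against 68.1% of all genes. The lowered members were 7 of 10 SYT genes, 3 of 4 SYTL genes and 8 of 48 RAB genes, and the 4 raised members were all RAB genes. The median log2 fold change was -1.82 over the SYT genes, -1.34 over the SYTL genes and -0.14 over the RAB genes, beside -0.06 over all genes tested. In whole-culture RNA fewer cells that make a transcript and less of it per cell cannot be told apart.

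The summed level of each family followed the same split. The 16 SYT genes together had 65.5 and 67.2 CPM in untreated cells, 20.7 and 22.8 with IFN-γ, 71.6 and 69.8 with AX-0085, and 74.2 and 73.2 with both. The 4 SYTL genes summed to 14.4 and 15.8 CPM untreated, 5.65 and 5.35 with IFN-γ, 21.8 and 21.6 with AX-0085, and 14.3 and 17.4 with both. In both families the 2 IFN-γ libraries stood below all 6 others. The 57 RAB genes summed to between 2352 and 2627 CPM in all 8 libraries, lowest in the 2 libraries with both agents. These sums are descriptions with no test.

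**Figure D1:**
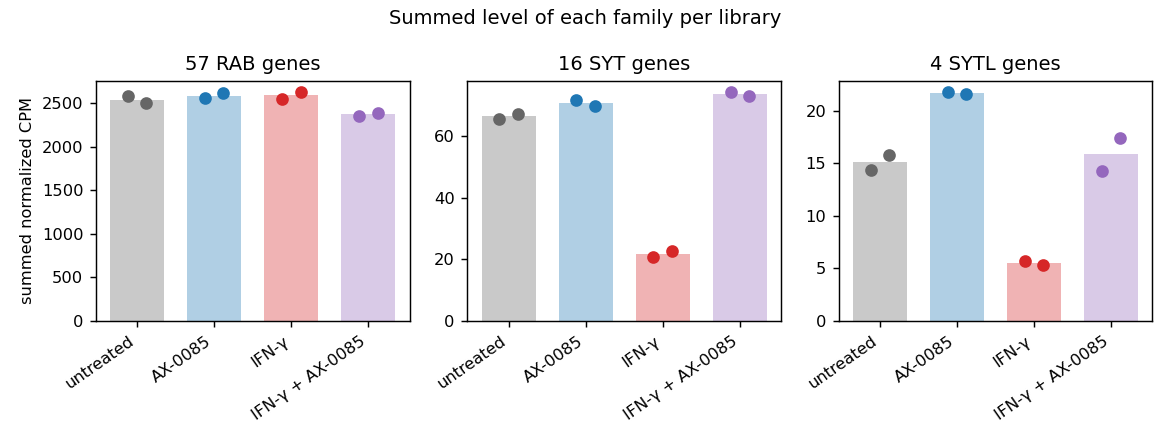
Summed normalized CPM of the 57 RAB, 16 SYT and 4 SYTL genes in each of the 8 libraries (points) with the mean of each condition (bars, axes from 0). The SYT sum was 20.7 and 22.8 CPM in the IFN-γ libraries and at least 65.5 in the other 6, while the RAB sum stayed between 2352 and 2627.

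Per length of exon, the most abundant members in untreated cells were RAB10, which serves exocytosis and transport to the cell surface, at 127.6 ± 6.76 CPM per kb (SD, n = 2), RAB34, linked to lysosome position and ciliogenesis, at 73.96 ± 6.42, and RAB1A, a RAB of transport from the endoplasmic reticulum to the Golgi, at 69.88 ± 6.38. The last pair did not differ beyond their spread, and 22.9% of RAB1A's exon bases overlap another gene. None of the 3 was called with IFN-γ: the log2 fold changes were 0.33 (SE 0.06), -0.19 (SE 0.09) and -0.32 (SE 0.07). The most abundant SYT gene among those described here, SYT13, reached 2.39 CPM per kb.

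Among the RABs of regulated secretion, 4 of 7 tested fell with IFN-γ (17.2% of all genes fell) and none rose. RAB26, a RAB of secretory granules, carried the largest change of any member. It had 9.79 and 9.69 CPM in untreated cells, 0.264 and 0.161 with IFN-γ, 18.8 and 18.7 with AX-0085, and 23.7 and 22.1 with both. The IFN-γ libraries were far below all others and no 2 conditions overlapped. The log2 fold change with IFN-γ was -5.53 (SE 0.21, edgeR adjusted p = 1.04e-10), and adding AX-0085 to IFN-γ raised it by 6.77 (SE 0.18, edgeR adjusted p = 7.73e-12). AX-0085 alone gave 0.94 (SE 0.09), short of the 2-fold limit. RAB26 lies on chromosome 16 at 2140803 to 2154165 (GRCh38, plus strand, GENCODE 44), and none of its exon bases overlap another gene.

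RAB37, the nearest relative of RAB26 and also a RAB of secretory granules, had 5.13 and 4.44 CPM untreated, 0.739 and 1.25 with IFN-γ, 24.8 and 22.5 with AX-0085, and 21.1 and 21.1 with both. It was already called higher with AX-0085 alone, at a log2 fold change of 2.30 (SE 0.12, edgeR adjusted p = 9.11e-09). With IFN-γ the change was -2.22 (SE 0.21), and 21.6% of its exon bases overlap another gene.

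The RAB3 paralogs, which act at late steps of vesicle docking, were not all called alike. RAB3D, the granule RAB of exocrine cells, had 4.17 and 4.20 CPM untreated, 0.845 and 0.844 with IFN-γ, 5.74 and 4.67 with AX-0085, and 4.83 and 4.50 with both. The IFN-γ libraries were the lowest by far, with a log2 fold change of -2.30 (SE 0.21, edgeR adjusted p = 5.53e-07), and 25.1% of RAB3D exon bases overlap another gene. RAB3A, the synaptic vesicle form, was low throughout: 0.993 and 1.55 CPM untreated, 0 and 0.402 with IFN-γ, 1.59 and 1.69 with AX-0085, 1.09 and 1.08 with both. It fell with IFN-γ by 2.44 on the log2 scale (SE 0.57, edgeR adjusted p = 0.00191), a value that was -1.62 without IFN-γ replicate 1, the library at 0, and -7.98 without replicate 2.

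RAB3B, an epithelial and endocrine RAB3, took another course. It had 36.1 and 32.0 CPM untreated, 34.4 and 35 with IFN-γ, 11.3 and 10.5 with AX-0085, and 4.25 and 3.6 with both. IFN-γ alone left it within the spread (0.03, SE 0.09, 95% interval -0.16 to 0.21). AX-0085 lowered it alone (-1.64, SE 0.09) and on top of IFN-γ (-3.13, SE 0.11, edgeR adjusted p = 6.90e-11), and with AX-0085 present IFN-γ lowered it by a further 1.46. Per length, RAB3B was 65.2% and 57.8% of the RAB3A, RAB3B and RAB3D sum in untreated cells, 93.3% and 86.8% with IFN-γ, 28.8% and 28.9% with AX-0085, and 16.3% and 14.7% with both. RAB27A and RAB27B, which anchor secretory lysosomes and granules to effectors, gave 0.35 (SE 0.10) and 0.02 (SE 0.15) with IFN-γ and were called in no comparison.

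**Figure D2:**
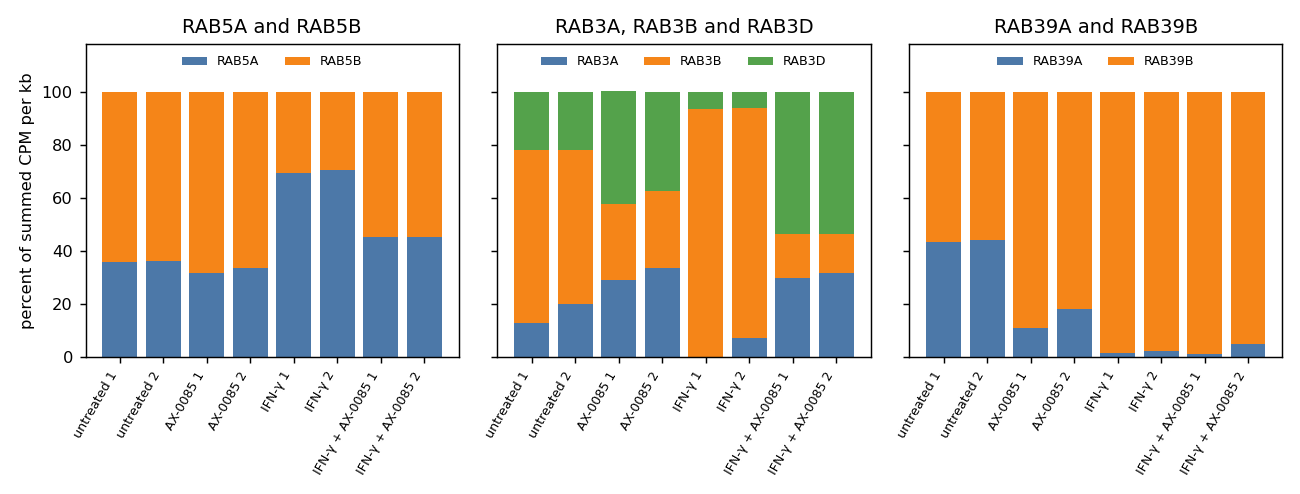
Share of the summed CPM per kb of exon held by each paralog, in percent, for RAB5A with RAB5B, for RAB3A with RAB3B and RAB3D, and for RAB39A with RAB39B, with 1 stacked bar per library. RAB5A went from 35.6% and 35.9% of its pair untreated to 69.4% and 70.3% with IFN-γ, and RAB3B from 65.2% and 57.8% untreated to 16.3% and 14.7% with both agents.

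Of the calcium-binding synaptotagmins 3 of 5 tested (SYT6, SYT3 and SYT2) were called lower with IFN-γ, where 17.2% of all genes fell. SYT6, a synaptotagmin known from the acrosome reaction of sperm, had 10.8 and 9.24 CPM untreated, 0.634 and 0.683 with IFN-γ, 8.17 and 7.68 with AX-0085, and 4.22 and 4.45 with both. No 2 conditions overlapped, and the libraries with both agents lay between IFN-γ and untreated. SYT6 fell with IFN-γ by 3.92 on the log2 scale (SE 0.19, edgeR adjusted p = 9.32e-10), rose by 2.7 (SE 0.22) with AX-0085 on top of IFN-γ, and was still lower than untreated with both by 1.22 (SE 0.13, edgeR adjusted p = 3.38e-06).

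SYT3 rested on few reads, with 2 and 1 counts in the IFN-γ libraries. Its fitted change with IFN-γ was -3.66 (SE 0.69), or -3.02 without IFN-γ replicate 2 and -4.36 without IFN-γ replicate 1. The ratio of untreated to IFN-γ was 13.3 (95% counting interval 4.31 to 66.8) and that of both agents to IFN-γ 6.0 (1.8 to 31.3). These intervals pool the libraries of a condition and leave out the spread between libraries. Its call for both against IFN-γ (2.51) was lost without IFN-γ replicate 2 (1.92, edgeR adjusted p = 0.12) or without replicate 2 of both agents (1.99, edgeR adjusted p = 0.0927). SYT2, a fast calcium sensor of synapses, stayed under 0.5 CPM in all 8 libraries. Its call with IFN-γ (-1.30, SE 0.50) was lost without each of the 4 libraries compared (-1.46 to -1.17, edgeR adjusted p from 0.0737 to 0.12), and 27.0% of its exon bases overlap another gene.

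SYT1, the calcium sensor of fast transmitter release, and SYT7, a sensor of lysosome and granule exocytosis, were not called with IFN-γ (0.50, SE 0.17 and -0.28, SE 0.21). With AX-0085 alone they went opposite ways. SYT1 had 2.98 and 3.67 CPM untreated and 7.21 and 7.30 with AX-0085 (log2 fold change 1.14, SE 0.15, edgeR adjusted p = 4.28e-05), and SYT7 had 2.98 and 2.52 against 1.59 and 1.13 (-1.03, SE 0.22, edgeR adjusted p = 0.00181). Neither pair of groups overlapped. Without untreated replicate 1 these values were 1.00 and -0.88, and without AX-0085 replicate 2 SYT7 gave -0.79, all within 2-fold.

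Of the synaptotagmins generally listed as not binding calcium 4 of 5 tested fell with IFN-γ, where 17.2% of all genes fell, and all 5 rose once AX-0085 joined IFN-γ, where 16.5% of all genes rose. SYT11, linked to membrane retrieval in neurons, had 4.27 and 4.68 CPM untreated, 0.739 and 0.362 with IFN-γ, 4.30 and 4.10 with AX-0085, and 3.84 and 3.10 with both. The IFN-γ libraries were lowest, those with both agents lay next, and untreated and AX-0085 libraries overlapped (-3.07, SE 0.27, edgeR adjusted p = 2.94e-07). SYT13 went from 13.1 and 12.9 CPM to 3.43 and 3.66 with IFN-γ, against 16.6 and 17.0 with AX-0085 and 12.2 and 11.8 with both (-1.87, SE 0.11). SYT17 went from 13.8 and 13.5 CPM to 3.91 and 4.10, against 20.0 and 19.9 with AX-0085 and 19.1 and 17.5 with both (-1.76, SE 0.11). For SYT13 and SYT17 too, each IFN-γ library was below all 6 others.

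SYT12, a synaptic vesicle protein of this group, fell with either agent and was not called with their combination. It had 12.1 and 13.6 CPM untreated, 1.58 and 1.45 with IFN-γ, 2.99 and 3.54 with AX-0085, and 10.0 and 12.2 with both. Both single treatments lay far below the other conditions. The log2 fold change was -3.09 (SE 0.17) with IFN-γ, -1.97 (SE 0.14, edgeR adjusted p = 1.67e-07) with AX-0085, and -0.22 (SE 0.12, 95% interval -0.48 to 0.05) with both. The interaction, by which the IFN-γ change with AX-0085 exceeded that without it, was 4.84 (SE 0.23, edgeR adjusted p = 5.32e-09). SYT15 had 3.94 and 4.72 CPM untreated, 3.22 and 3.78 with IFN-γ, 9.44 and 8.28 with AX-0085, and 16.1 and 15.6 with both, so it was highest with both agents (1.88 over untreated, SE 0.13). Its 1.04 with AX-0085 alone was 0.92 without untreated replicate 1 and 0.94 without AX-0085 replicate 1.

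SYTL4 (granuphilin), which docks granules through RAB27, had 4.73 and 4.68 CPM untreated, 0.422 and 0.563 with IFN-γ, 3.58 and 4.21 with AX-0085, and 2.11 and 2.47 with both. As for SYT6, the libraries with both agents lay between IFN-γ and untreated. SYTL4 fell with IFN-γ by 3.22 (SE 0.24, edgeR adjusted p = 6.12e-08) and was lower with both than untreated by 1.05, or 0.89 without replicate 1 of both agents, and 39% of its exon bases overlap another gene. SYTL3 (-1.51, SE 0.32) and SYTL2 (-1.17, SE 0.17), whose protein tethers granules in epithelia, fell as well.

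SYTL1 was called with AX-0085 and not with IFN-γ. This RAB27 effector had 0.761 and 0.529 CPM untreated, 0.845 and 0.764 with IFN-γ, 5.42 and 4.86 with AX-0085, and 4.44 and 5.44 with both. The 4 libraries with AX-0085 lay above the 4 without it. The log2 fold change was 2.96 (SE 0.22, edgeR adjusted p = 2.21e-07) with AX-0085 alone, 2.61 (SE 0.23) over IFN-γ, and 0.28 (SE 0.33, 95% interval -0.43 to 1.00) with IFN-γ alone.

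**Figure D3:**
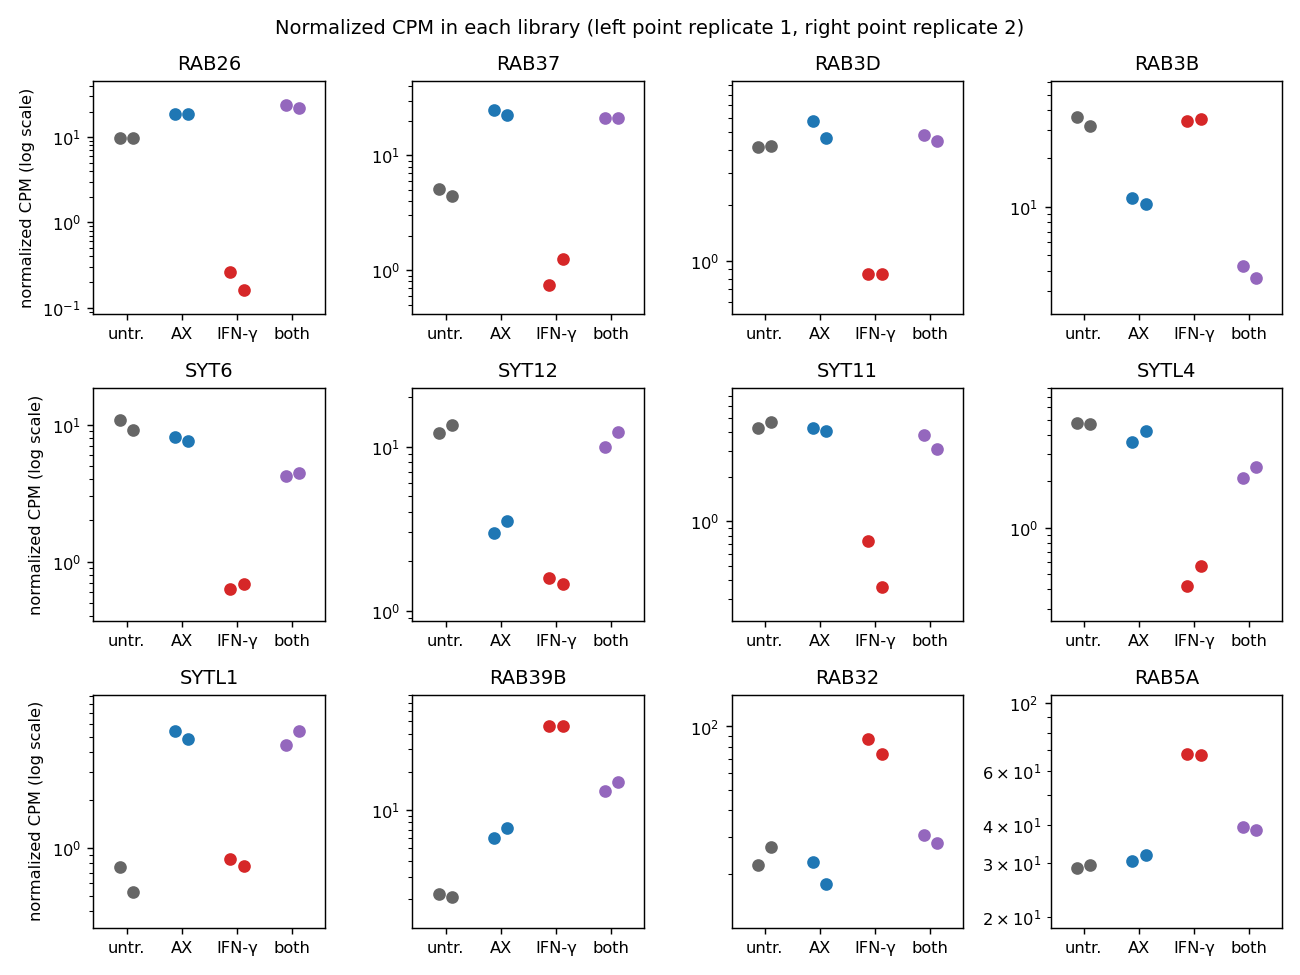
Normalized CPM (log axis) of 12 members in each library, left point replicate 1 and right point replicate 2, for untreated, AX-0085, IFN-γ and both agents. RAB26, RAB37, RAB3D, SYT6, SYT11, SYT12 and SYTL4 are lowest with IFN-γ, RAB3B is lowest with both agents, SYTL1 is above 4 CPM only with AX-0085, and RAB39B, RAB32 and RAB5A are highest with IFN-γ.

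The 4 members raised by IFN-γ were listed as RABs of late endosomes and lysosomes (3 of 11 tested) or early endosomes (1 of 6). Of all genes, 10.3% rose. The late endosome and lysosome RABs did not rise as a group: 1 of the 11 was called lower, and their median log2 fold change was -0.19. RAB39B, a RAB best known for X-linked neurological disease, had 2.18 and 2.08 CPM untreated, 45.8 and 46.2 with IFN-γ, 6.05 and 7.19 with AX-0085, and 14.1 and 16.5 with both. No 2 conditions overlapped. It rose with IFN-γ by 4.43 on the log2 scale (SE 0.12, edgeR adjusted p = 7.91e-12) and with AX-0085 alone by 1.63 (SE 0.15), and fell by 1.60 (SE 0.10) once AX-0085 joined IFN-γ. Its paralog RAB39A stayed under 1 CPM in every library, so per length RAB39B went from 56.6% and 56.1% of the pair to 98.8% and 97.8% with IFN-γ.

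RAB32, a RAB of lysosome-related organelles and mitochondria, had 22.1 and 26.8 CPM untreated, 87.2 and 74.5 with IFN-γ, 22.8 and 18.0 with AX-0085, and 30.8 and 28 with both. It was highest in both IFN-γ libraries (1.73, SE 0.12, edgeR adjusted p = 3.80e-08) and fell with AX-0085 on top by 1.46 (SE 0.12). RAB9A, which returns receptors from late endosomes to the Golgi, had 23.8 and 25.4 CPM untreated, 54.5 and 51.6 with IFN-γ, 23.5 and 22.8 with AX-0085, and 26.1 and 26.9 with both (1.11 with IFN-γ, SE 0.08, or 0.99 with library size as the only scaling). RAB29, a close relative of RAB32 and a partner of the kinase LRRK2, went the other way, from 20.2 and 22.6 CPM to 8.13 and 7.28 with IFN-γ (-1.48, SE 0.10).

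RAB5A and RAB5B, which drive fusion of early endosomes, moved in opposite directions with IFN-γ. RAB5A had 28.9 and 29.6 CPM untreated, 68.0 and 67.5 with IFN-γ, 30.5 and 32.0 with AX-0085, and 39.3 and 38.6 with both (1.21 with IFN-γ, SE 0.07, edgeR adjusted p = 6.09e-09). RAB5B had 90.4 and 91.4 CPM untreated and 51.9 and 49.3 with IFN-γ. Its change of -0.85 on the log2 scale (SE 0.06, edgeR adjusted p = 4.85e-08) stayed within 2-fold. Per length RAB5A went from 35.6% and 35.9% of the pair to 69.4% and 70.3%, with 45.0% and 45.1% with both agents, while the pair's sum ranged only from 21.5 to 26.0 CPM per kb over the 8 libraries. RAB5C, the remaining paralog, was listed at 0 and is in neither figure.

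RAB11A, the central RAB of recycling endosomes, had 169 and 168 CPM untreated, 69.4 and 71.9 with IFN-γ, 153 and 158 with AX-0085, and 97.8 and 94.9 with both. It fell with IFN-γ by 1.25 (SE 0.06, edgeR adjusted p = 4.22e-10), and the libraries with both agents were between the IFN-γ and untreated ones. The 6 members listed as recycling RABs, RAB11A included, summed to 484.7 and 485.1 CPM untreated and 335.2 and 335.1 with IFN-γ. All 5 tested had a log2 fold change below 0, but RAB11A alone was called (20.0%, beside 27.5% of all genes). Of the RABs between the endoplasmic reticulum and the Golgi only RAB6B, the form enriched in neurons, was called of 10 tested (-1.88, SE 0.26), from 3.97 and 4.15 CPM to 1.06 and 1.13. RAB6A, its abundant paralog, gave 0.68 (SE 0.06). RAB6C and RAB6D are near copies of RAB6A, so their counts are uncertain.

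RAB40B, which carries a SOCS box that recruits a ubiquitin ligase, had 12.8 and 12.3 CPM untreated, 1.53 and 1.61 with IFN-γ, 23.2 and 24.0 with AX-0085, and 13.8 and 16 with both. It fell with IFN-γ by 2.99 (SE 0.14, edgeR adjusted p = 8.35e-10) and rose by 3.23 (SE 0.14) with AX-0085 on top, whereas its paralog RAB40C gave -0.14 (SE 0.10, 95% interval -0.35 to 0.08) with IFN-γ. The 40 tested members that were not called with IFN-γ lay between -1.0 (RAB39A) and 1.39 (RAB24, 3 and 4 counts untreated), and 19 of them had an adjusted p under 0.05 within 2-fold. The other 15 members had at most 16 counts in any library (SYT9): RAB17, RAB19, RAB25, RAB30, RAB33A, RAB3C, RAB40A, RAB44, RAB7B, SYT14, SYT16, SYT4, SYT5, SYT8 and SYT9.

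**Figure D4:**
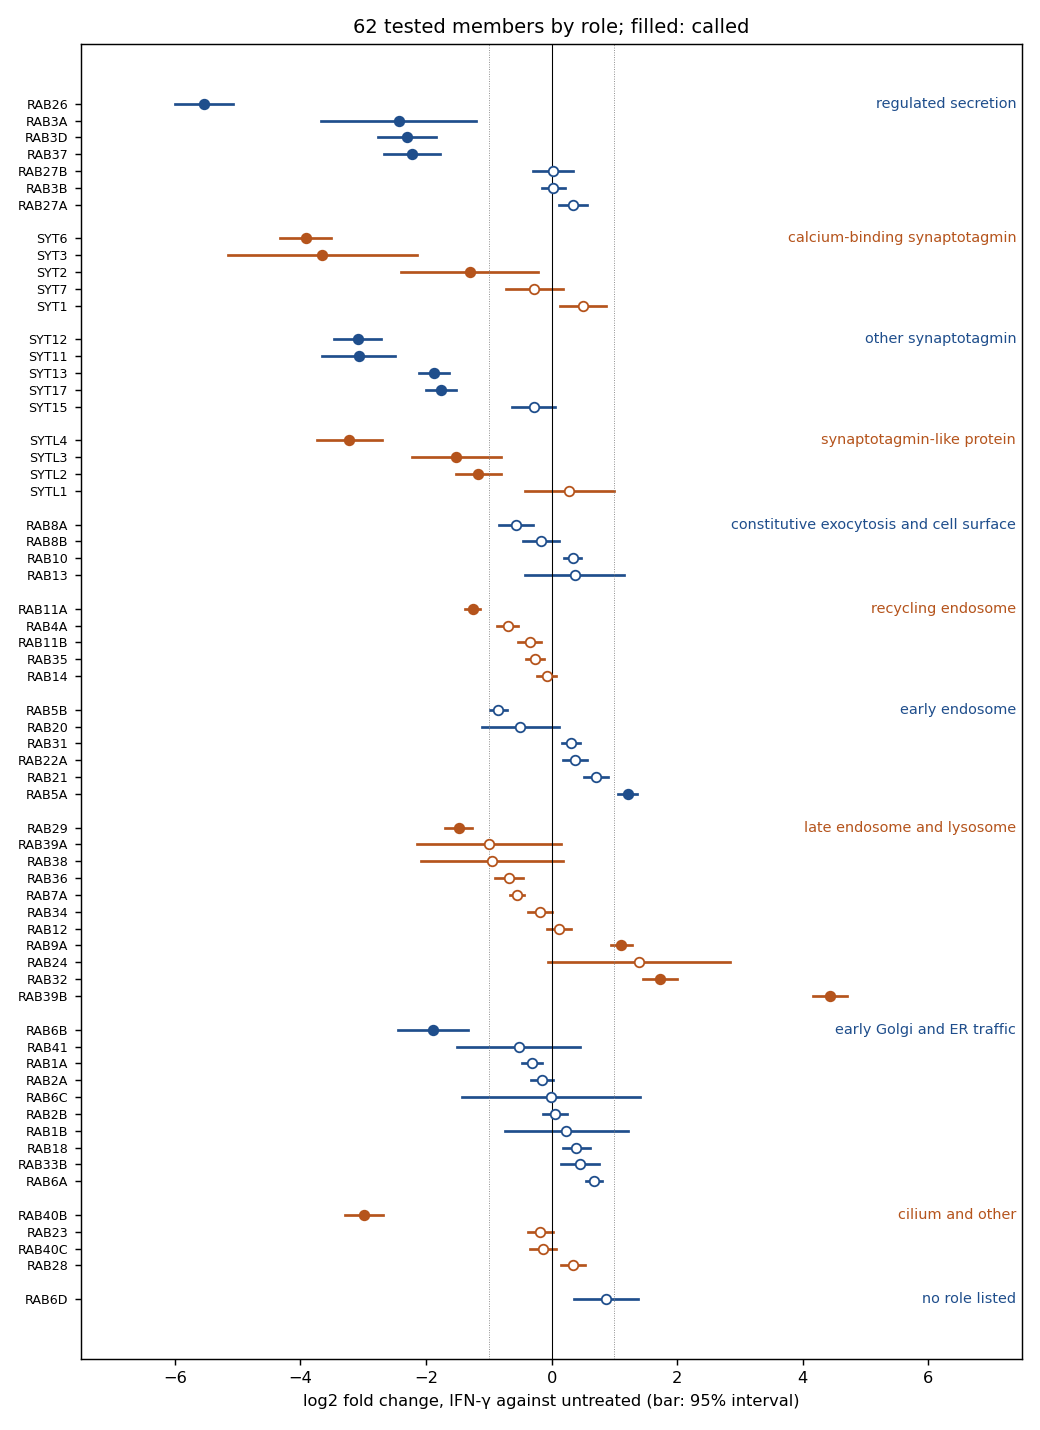
Log2 fold change with IFN-γ against untreated for the 62 tested members, grouped by role, with 95% intervals as bars. Filled points were called (adjusted p under 0.05 and over 2-fold), so an open point can still have an adjusted p under 0.05. Dotted lines mark 2-fold. The lowest is RAB26 at -5.53 and the highest RAB39B at 4.43, and no tested SYT or SYTL gene was called higher.

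The 6 epithelial markers did not move as one. With IFN-γ the log2 fold changes were -3.18 for EPCAM, -2.16 for KRT19, -1.73 for CDH1 (E-cadherin), -1.40 for KRT8, -1.09 for KRT18 and 0.74 for KRT7. With AX-0085 on top of IFN-γ they were 3.0 for EPCAM, 1.31 for KRT19, 2.91 for CDH1, 0.66 for KRT8, -0.17 for KRT18 and -0.22 for KRT7. Their sum was lowest with AX-0085 alone. The mitochondrial share was lowest in the IFN-γ libraries. So were the fibroblast list, carried by COL1A1, and the leukocyte list, carried by CD79A at 3 and 1 counts with IFN-γ. The part of any of these in the secretory members' change was not tested.

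The next question was what AX-0085 did on top of IFN-γ. It raised 17 of the 62 tested members and lowered 3, where 16.5% and 8.28% of all genes were called higher and lower. By the adjusted p alone 39 passed (66.5% of all genes). The SYT genes accounted for 7 of the raised members and the SYTL genes for 3, with none lowered of 14, and RAB genes for 7 raised and 3 lowered. The 3 lowered were RAB3B, RAB39B and RAB32. RAB20, a RAB of early endosomes and phagosomes, rose from 0.739 and 1.13 CPM with IFN-γ to 2.53 and 3.24 with both (1.57, SE 0.25) although IFN-γ alone gave -0.50 (SE 0.29).

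With AX-0085 alone 5 members rose (SYTL1, RAB37, RAB39B, SYT1 and SYT15) and 3 fell (SYT12, RAB3B and SYT7), where 6.41% and 5.62% of all genes were called, and 26 passed on the adjusted p alone (53.3% of all genes). With both agents against untreated 6 rose and 5 fell (7.51% and 7.23% of all genes), and 31 passed on the adjusted p alone (56.9%). Those higher were SYTL1 (2.89), RAB39B (2.83), RAB37 (2.13), SYT15 (1.88), RAB26 (1.23) and RAB20 (1.07). Those lower were RAB3B (-3.10), RAB39A (-1.98), SYT6 (-1.22), SYT3 (-1.14) and SYTL4 (-1.05). RAB39A rested on under 1 CPM and gave -0.98 without replicate 1 of both agents and -3.74 without replicate 2. SYT3 gave -0.63 without untreated replicate 2, -1.10 without IFN-γ replicate 2 (edgeR adjusted p = 0.0503) and -0.62 without replicate 1 of both agents, and RAB20 gave 0.90 without replicate 2 of both agents.

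The effect of IFN-γ was then set side by side without and with AX-0085, 2 comparisons that share no library. In the presence of AX-0085 IFN-γ changed 2 members upwards (SYT12 by 1.76 and RAB39B by 1.20) and 1 downwards (RAB3B by -1.46), where 1.79% and 1.73% of all genes were called. On the adjusted p alone 23 passed (34.7% of all genes). All 22 members called with IFN-γ alone had a smaller change with AX-0085, and so did 98.9% of the 4137 genes called with IFN-γ. These members were picked for a large change without AX-0085, so the count is a description. Their median size on the log2 scale was 2.05 without and 0.43 with AX-0085, beside 1.57 and 0.40 for all called genes. The interaction term was called for 17 members upwards and 5 downwards, where 12.1% and 6.46% of all genes were called, and for 36 it had an adjusted p under 0.05 (50.3% of all genes).

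**Figure D5:**
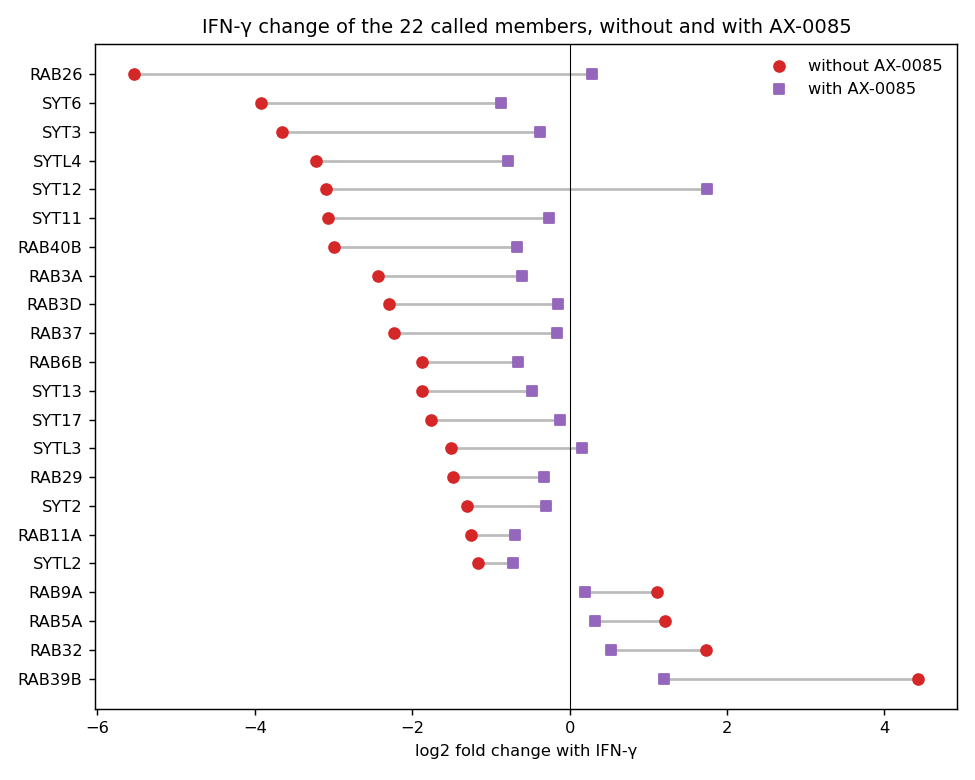
Log2 fold change with IFN-γ of the 22 members called with IFN-γ alone, without AX-0085 (circles, IFN-γ against untreated) and with it (squares, both against AX-0085). RAB26 goes from -5.53 to 0.29 and SYT12 from -3.09 to 1.76, and all 22 squares lie closer to 0 than their circles.

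Genes whose products act on RABs and synaptotagmins were read from 5 lists. Over all genes tested 27.5% were called with IFN-γ (10.3% higher and 17.2% lower), with a median of -0.06 on the log2 scale. IFN-γ raised none and lowered 2 of 7 tested genes of RAB prenylation, or 28.6%, about the share of all genes (median -0.07): RABGGTA, a subunit of the RAB prenyltransferase, went from 18.8 and 18.7 CPM to 7.66 and 7.36 (-1.32), and RABIF, a RAB chaperone, from 24.7 and 26.9 to 13.7 and 12 (-1.01). RABIF gave -0.91, -0.87 and -0.97 without untreated replicate 2, IFN-γ replicate 2 and replicate 1 of both agents. It was also within 2-fold, at -0.97, with DESeq2, with another scaling (RLE) and with only the groups compared. Of 34 exchange factors 2 rose and 2 fell, or 11.8%, below the share of all genes (median 0.09). RIN2, an exchange factor for RAB5, rose from 60.5 and 60.3 CPM to 158 and 155 (1.37) and was at 66.6 and 69.9 with both agents. RAB3IL1 rose by 1.13, DENND1C fell by 3.18 and DENND2A by 1.70. Of 32 GTPase-activating proteins TBC1D2 alone was called, or 3.12%, lower by 1.37 (median -0.14).

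Among 13 RAB3 and RAB27 effectors 1 rose and 2 fell with IFN-γ, or 23.1% beside 27.5% of all genes (median -0.44). EXPH5, a RAB27 effector, had 1.06 and 0.815 CPM untreated, 6.13 and 6.59 with IFN-γ, 0.757 and 0.979 with AX-0085, and 0.448 and 0.405 with both. Only the IFN-γ libraries were high (2.74), and it fell by 3.88 with AX-0085 on top. MYO5C, a myosin of secretory granules, went from 31.7 and 28.7 CPM to 8.77 and 9.49 with IFN-γ (-1.72) and was at 24.4 and 24.2 with both, and RIMS3 fell by 1.91. Of 42 SNARE and exocytosis genes 2 rose and 5 fell, or 16.7%, below the 27.5% of all genes (median 0.04). STX1A, the plasma membrane syntaxin of exocytosis, rose by 1.45 and STX16, a syntaxin of the trans-Golgi network, by 1.03 (0.98 without untreated replicate 1 and 0.93 without IFN-γ replicate 2). DOC2A, a calcium sensor with C2 domains, fell by 2.94, from 1.69 and 2.65 CPM to 0.317 and 0.241, and the vesicle SNARE VAMP1 by 1.96 (-1.53 and edgeR adjusted p = 0.052 without IFN-γ replicate 2). VAMP8 and CPLX2 were also lower. CPLX2, a complexin that binds assembled SNAREs, was the most abundant of them, at 1260 and 1210 CPM untreated, 509 and 439 with IFN-γ, 1940 and 1950 with AX-0085, and 1690 and 1790 with both.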

How the data were processed

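RNA-seq of 8 A549 libraries (mRNA, stranded kit) was analysed from the deposited table of raw read counts per gene. Per the labels, the authors used bcl2fastq 2.20, Trim Galore 0.6.7, STAR 2.7.9a and featureCounts on GRCh38. The annotation release and strand setting are not given in the sources used here, so overlapping genes are marked as uncertain (shared exon bases from GENCODE 44).

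Counts were filtered by expression (filterByExpr), scaled by TMM and fitted in edgeR 4.0.16 (R 4.3.3), quasi-likelihood, 1 model of 4 groups. All 6 comparisons were tested in that fit, with Benjamini-Hochberg adjustment over 15066 genes separately in each. A call needed an adjusted p under 0.05 and a change over 2-fold. CPM use TMM-scaled totals. With 2 libraries against 2 an exact permutation test of 1 gene cannot go below p = 0.333. Tested on simulated data with 200 changed genes among 15066, the IFN-γ comparison recovered 100.0% of planted changes of 2.0 on the log2 scale, with 1 false call. Changes near the 2-fold limit were not simulated for it. The planted changes were only in genes with high mean counts, so the recovery does not cover members with few counts. They were balanced between higher and lower, whereas the real IFN-γ comparison called 1547 genes higher and 2590 lower. Scaling under such an imbalance was not simulated.

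Alternatives were DESeq2 1.42.0, other scalings and filters, only the groups compared, a replicate block, an adjusted p alone, and each library left out. The members, roles and gene lists were chosen with earlier results of these data known. Named were RAB26, SYT6, all tested SYT and SYTL genes, RAB3 and RAB27 genes, RAB37, the 5 largest called changes each way per comparison, the 3 most abundant members, and the 2 largest called changes each way per pathway list. RAB11A, RAB29, RAB6B, RAB6A, RAB20, RAB5B, RAB40C, RAB24, VAMP8 and CPLX2 were named after their values were seen. Some genes that the rule or the lists hold are not reported here.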

Additional observations from a re-analysis of the deposited data

Results flagged for a closer look

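The change with IFN-γ differed between cells with and without AX-0085 for 22 of 62 tested members (35.5%). This was the interaction term of the edgeR fit with Benjamini-Hochberg adjustment. It was called for 18.6% of all genes tested (12.1% higher and 6.46% lower). A positive value means that the IFN-γ change lay higher with AX-0085 than without it. Among RABs of regulated secretion the difference on the log2 scale was 5.82 for RAB26, 2.06 for RAB37, 2.15 for RAB3D, 1.84 for RAB3A and -1.48 for RAB3B. Among calcium-binding synaptotagmins it was 3.04 for SYT6, 3.27 for SYT3, 1.19 for SYT7 and -1.04 for SYT1, among other synaptotagmins 4.84 for SYT12, 2.81 for SYT11, 1.64 for SYT17, 1.39 for SYT13 and 1.13 for SYT15, and among SYTL genes 2.44 for SYTL4 and 1.67 for SYTL3. For the remaining RABs it was 2.32 for RAB40B, 1.23 for RAB6B, 1.15 for RAB29, -3.23 for RAB39B, -1.20 for RAB32 and -1.12 for RAB6D.

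SYT12 differed in sign between the settings, -3.09 without and 1.76 with AX-0085, both called. RAB3B reached its value with no called change in the absence of AX-0085 (0.03) and a called one in its presence (-1.46). SYT1 gave 0.50 and -0.54, and SYT7 -0.28 and 0.92, none of them past 2-fold. The RAB3A interaction (edgeR adjusted p = 0.0465) was lost without 6 of the 8 libraries in turn, at 1.02 to 1.88 and edgeR adjusted p from 0.0772 to 0.136, and came to 7.41 without IFN-γ replicate 2, which leaves the IFN-γ library at 0 alone. RAB6B gave 0.94 without AX-0085 replicate 2. RAB6D gave -0.93 without untreated replicate 2 and -0.91 without AX-0085 replicate 2. SYT15 gave 0.99 without untreated replicate 2, SYT1 -0.90 without untreated replicate 1 and -0.83 without IFN-γ replicate 2, and SYT7 0.96 without AX-0085 replicate 2 and 0.99 without replicate 1 of both agents. SYT3 gave 2.67 without IFN-γ replicate 2 (edgeR adjusted p = 0.0625) and 2.75 without replicate 2 of both agents (edgeR adjusted p = 0.0503).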

How the results depend on the processing

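No named member's value reversed under the alternatives where it was called. With an adjusted p alone, members called went from 4 to 15 higher for IFN-γ, from 5 to 18 higher and 3 to 8 lower for AX-0085, from 3 to 14 lower for both against IFN-γ, from 2 to 7 higher and 1 to 16 lower for both against AX-0085, from 6 to 16 higher and 5 to 15 lower for both against untreated, and from 5 to 16 lower for the interaction, since the 2-fold limit was dropped. With at least 10 counts in every library, which removes genes low in 1 group, 11 were lower with IFN-γ (RAB26 is among those removed), 2 lower with both against untreated, and 11 higher for the interaction. That filter kept 12379 genes. For both against AX-0085, 3 were lower with no filter beyond 1 count and 2 with only the groups compared (the cause was not tested). Leaving out 1 library, members lower ranged from 3 to 5 for both against IFN-γ (5 without replicate 2 of both agents), 1 to 2 for both against AX-0085 (2 without the same library), and 2 to 5 for both against untreated (2 without replicate 1 of both agents). A lone library was assumed to vary like the other groups. Shares over all genes are not given here for the filters, for only the groups compared or for libraries left out. Whether these counts moved more than those of all genes was therefore not tested.

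Among members DESeq2 lost SYT2 with IFN-γ, SYT3 for both against untreated, and RAB3A and RAB6D for the interaction. It gained RAB9A for both against IFN-γ. Of the list genes called with IFN-γ, DESeq2 lost RABIF (-0.97). Library size as the only scaling moved the median of all genes from -0.06 to -0.18 with IFN-γ and from 0.03 to 0.16 for both against IFN-γ, and RAB9A with IFN-γ came to 0.99. Deviations of same-numbered libraries correlated at -0.0738 to 0.0444, so the numbers showed no pairing by this measure. It was taken over all tested genes, those with few counts included, and cannot exclude a shared culture or batch. With the replicate block 10 members in place of 11 were called for both against untreated (SYT3 lost), and 22 with IFN-γ as before.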
